A study of Zea mays with 6 samples.

Results

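The 10 maize genes described here comprise a transcriptional regulator of flavonoid and anthocyanin synthesis and genes for the enzymes of that pathway. They were taken by identifier from a count table of 45953 features. They are the chalcone synthase genes c2 (Zm00001d052673) and whp1 (Zm00001d007403), the chalcone isomerase gene chi1 (Zm00001d034635) and the flavanone 3-hydroxylase gene fht1 (Zm00001d001960). They also include pr1, for flavonoid 3'-hydroxylase (Zm00001d017077), a1, for dihydroflavonol reductase (Zm00001d044122), and a2, for anthocyanidin synthase (Zm00001d014914). The last 3 are the glucosyltransferase gene bz1 (Zm00001d045055), the glutathione transferase gene bz2 (Zm00001d031489) and the bHLH regulator gene r1 (Zm00001d026147). The pairing of these symbols with the identifiers came with the list of members and was not checked against an annotation here.

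Poly(A)-selected RNA from leaves of 2-week-old maize plants was sequenced in 6 libraries. The inbred line KN5585, labelled WT, gave 3 of them, and a line edited in the KN5585 background to knock out ZmPP2C45, labelled PP2CKO, gave the other 3. The labels name 1 knockout line and leave unsaid whether a library is 1 plant or a pool. The p-values below thus rest on the spread among libraries, part or all of which may be technical. Neither the loss of the ZmPP2C45 transcript nor the leaf identity of the samples was checked here, because no gene name could be paired with an identifier for either purpose. Library totals ran from 15923668 to 20502449 counts, and the largest belonged to PP2CKO replicate 3.

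Flavonoids are built from a phenylpropanoid precursor and malonyl units by chalcone synthase, and chalcone isomerase closes the central ring. Hydroxylases, a reductase and an oxygenase then lead to anthocyanidins, which a glucosyltransferase stabilises and a glutathione transferase helps to bring into the vacuole. In maize, proteins of the r1 family act with MYB partners to switch on the structural genes that give purple pigment, and side branches of the pathway yield flavones that take part in defence against insects.

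Transcripts of c2, fht1, pr1, a1 and a2 were called higher in PP2CKO, with fitted rises of 2.91 to 18.2-fold. These genes cover the entry step and the steps from flavanones to anthocyanidins. Only c2 and pr1 kept the call under limma voom and under an edgeR fit with robust estimation of the spread. For a2 the lines overlapped. The rise was smallest in c2, at the entry, and chi1, bz2 and r1 were not called in either direction. Of the 10 members, 5 were called higher and 0 lower, 3 were tested and not called, and 2 had too few counts to be tested (quasi-likelihood F test of edgeR, adjusted p below 0.05 by Benjamini-Hochberg over all 21206 tested features). Among all tested features, 5.15% were called higher and 2.08% lower. The members were chosen with earlier results of these data known, so setting their count beside these shares is no test. The 0 members lower held also at an unadjusted p below 0.05, and DESeq2 and limma voom likewise called 0 lower. The filter on low counts asked for about 10 counts in at least 3 libraries, and fht1 and a2 met it only with the help of PP2CKO libraries, since each had 10 counts in 2 of the 3 WT libraries. RNA of whole leaves cannot tell a change in the number of cells that express a gene from a change in RNA per cell.

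**Figure D1:**
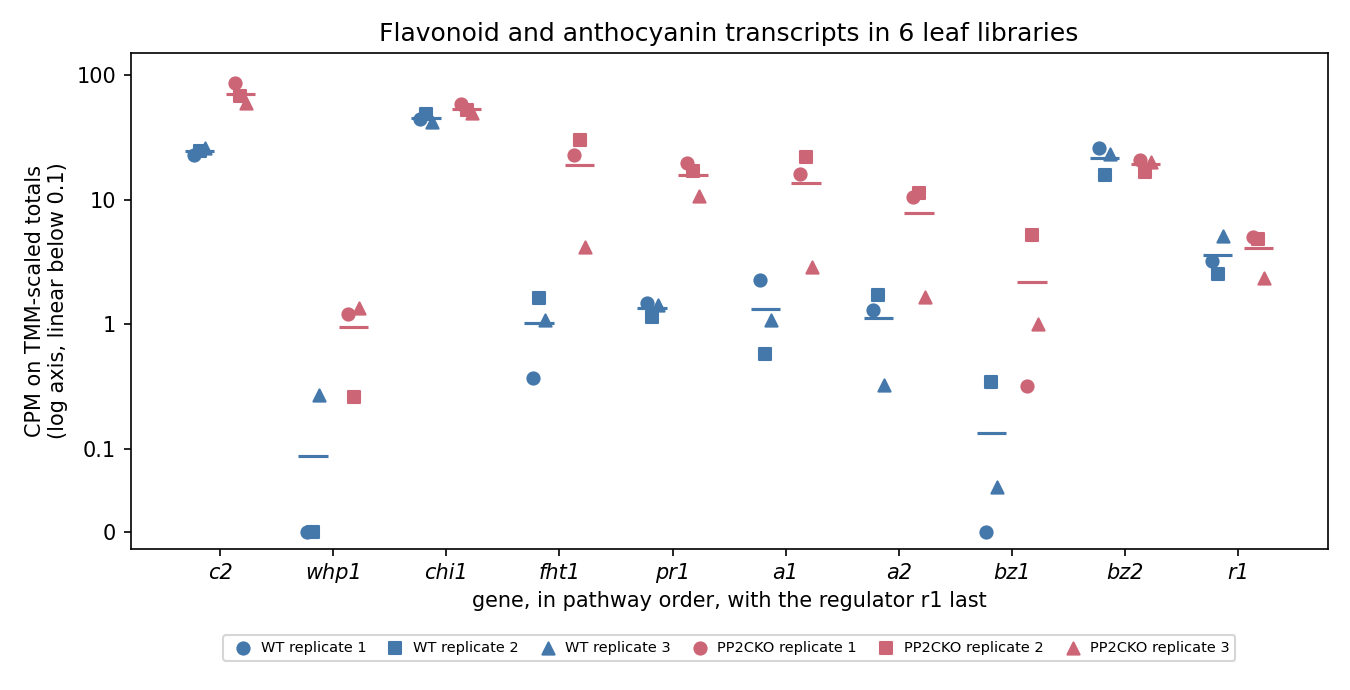
Level of each gene as CPM on library totals scaled by TMM (trimmed mean of M values), on a log axis that is linear below 0.1; each point is 1 library and each short bar the mean of 3. All 3 PP2CKO libraries lie above all 3 WT libraries for c2, chi1, fht1, pr1 and a1, and PP2CKO replicate 3 is the lowest of its line for 7 of the 10 genes.

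Chalcone synthase is the entry enzyme of the pathway, and nearly all of its counts fell on c2. In CPM, which are counts relative to the library total after TMM scaling, c2 stood at 22.6, 24.4 and 26.0 in the WT libraries and at 85.6, 67.4 and 59.5 in the PP2CKO libraries. Every PP2CKO library was far above every WT library, and the libraries of each line lay close together. The means were 24.3 ± 1.67 and 70.8 ± 13.4 CPM (SD, n = 3 each), and the log2 fold change was 1.54 ± 0.17 (SE), with an edgeR adjusted p of 0.000467. The 95% interval of the fold ran from 2.25 to 3.76.

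The second chalcone synthase gene, whp1, had few counts. It had 0, 0 and 5 counts in WT and 19, 4 and 27 in PP2CKO, so the lines overlapped. In the WT libraries without counts, 3 counts would correspond to 0.184 and 0.173 CPM, the level up to which the gene could have gone undetected. The pooled counts gave a ratio of 10.2, with a 95% counting interval of 4.10 to 32.8 that covers counting error only. In a fit without the low-count filter, the log2 fold change was 3.23 ± 1.16 (SE) and the edgeR adjusted p was 0.0753. That value moved below the threshold without WT replicate 3 (log2 7.004, edgeR adjusted p = 0.0184), which held all WT counts, and without PP2CKO replicate 2 (log2 3.67, edgeR adjusted p = 0.0329). With WT replicate 3 left out, WT had 0 counts, so the log2 fold change of 7.004 rests on no counted WT level.

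Since c2 and whp1 are close copies, reads may have been split between them in a way that depends on the counting. Of the counts of both genes together, c2 took 100%, 100% and 99.0% in the WT libraries and 98.6%, 99.6% and 97.8% in the PP2CKO libraries. In WT replicates 1 and 2, 0 whp1 counts among 368 and 424 allow a whp1 share of up to 0.815% and 0.708%. The mean c2 share was 99.7% ± 0.600 in WT and 98.7% ± 0.912 in PP2CKO (SD, n = 3 each), a difference of -0.987 percentage points. Exact permutation of the 6 line labels gave a two-sided p of 0.2, where 3 against 3 libraries cannot go below 0.1. The whp1 share was at most 2.21%, in PP2CKO replicate 3.

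Chalcone isomerase, the next enzyme, was not called. Its gene chi1 stood at 44.6, 48.8 and 42.3 CPM in WT and at 58.1, 52.6 and 49.6 CPM in PP2CKO. On TMM-scaled totals the PP2CKO libraries lay just above the WT libraries, without overlap, and PP2CKO replicate 3 was within 1 CPM of WT replicate 2. Its log2 fold change was 0.24 ± 0.15 (SE), with a 95% interval of -0.08 to 0.56 and an edgeR adjusted p of 0.353. With library size alone in place of TMM it was 0.02. Scaling by library size alone shifted all tested features by a median of -0.22 on the log2 scale, so the small difference in chi1 is stated relative to the bulk of tested features.

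The flavanone 3-hydroxylase gene fht1, which commits flavanones to dihydroflavonols, had the largest fold among the tested members. It stood at 0.369, 1.61 and 1.09 CPM in WT and at 22.8, 29.9 and 4.18 CPM in PP2CKO. All PP2CKO libraries were above all WT libraries, but PP2CKO replicate 3 was far below the other two of its line. The means were 1.02 ± 0.624 and 18.9 ± 13.3 CPM (SD, n = 3 each). The fold was 18.2, with a 95% interval of 6.91 to 47.7 and an edgeR adjusted p of 0.00332. The log2 fold change of fht1, 4.18 ± 0.64 (SE), ranked 17th from the top among the 21206 tested features. Since fht1 met the low-count filter only with the help of PP2CKO libraries, where it is high, this rank is no test.

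The gene pr1, whose enzyme adds the hydroxyl group that turns pelargonidin-type into cyanidin-type pigments, was the most evenly changed of the strongly raised genes. It stood at 1.47, 1.15 and 1.42 CPM in WT and at 19.7, 16.8 and 10.6 CPM in PP2CKO. The WT libraries were nearly equal, and the lowest PP2CKO library was several times the highest WT library. The means were 1.35 ± 0.173 and 15.7 ± 4.65 CPM (SD, n = 3 each), and the log2 fold change of 3.53 ± 0.30 (SE) had an edgeR adjusted p of 0.000182. The fold was 11.6, with a 95% interval of 7.38 to 18.2.

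**Figure D2:**
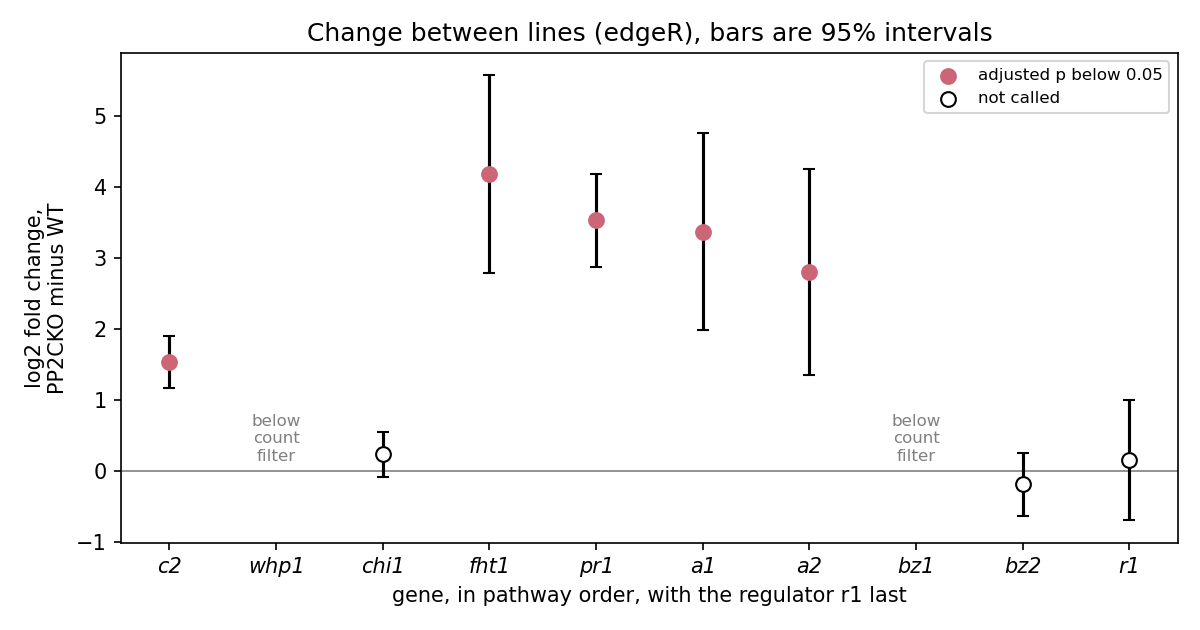
The log2 fold change of each tested gene between PP2CKO and WT in pathway order, with 95% intervals from the edgeR fit; filled points passed the adjusted p of 0.05. The 4 genes from fht1 to a2 lie between 2.80 and 4.18, above c2 at 1.54, while the intervals of chi1, bz2 and r1 include 0.

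Dihydroflavonol reductase, which makes leucoanthocyanidins, is encoded by a1. Its levels were 2.27, 0.575 and 1.09 CPM in WT and 16.03, 22.1 and 2.89 CPM in PP2CKO. PP2CKO replicates 1 and 2 were high, and PP2CKO replicate 3 was only a little above WT replicate 1. The log2 fold change was 3.38 ± 0.64 (SE), a 10.4-fold rise with a 95% interval of 3.96 to 27.2 (edgeR adjusted p = 0.00946). The call was lost without WT replicate 2 (log2 3.02, edgeR adjusted p = 0.0544) or WT replicate 3 (log2 3.24, edgeR adjusted p = 0.0635). Without WT replicate 1 the log2 fold change was 4.01, with the call kept (edgeR adjusted p = 0.0271).

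Anthocyanidin synthase, the product of a2, follows in the pathway. The gene stood at 1.29, 1.73 and 0.327 CPM in WT and at 10.6, 11.2 and 1.64 CPM in PP2CKO. The lines overlapped here, since PP2CKO replicate 3 lay below WT replicate 2. The log2 fold change was 2.80 ± 0.67 (SE), a 6.98-fold rise with a 95% interval of 2.56 to 19.0 (edgeR adjusted p = 0.0265). This was the least firm of the 5 calls, save in a fit with the replicate number as a block (edgeR adjusted p = 0.000827). The call of a2 was lost without WT replicate 1, 2 or 3 (edgeR adjusted p = 0.0951, 0.0604 and 0.106), where the log2 fold change was 2.91, 3.27 and 2.34. It was also lost without PP2CKO replicate 1 or 2 (edgeR adjusted p = 0.0615 and 0.0608), at log2 fold changes of 2.52 and 2.45. Without PP2CKO replicate 3 it was kept, at a log2 fold change of 3.29 (edgeR adjusted p = 0.00240).

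The calls of fht1, a1 and a2 were also lost under 2 other fits that kept those of c2 and pr1. An edgeR fit with robust estimation of the spread called 2 members higher, c2 and pr1, against 4.81% of all tested features. Its adjusted p-values were 0.0622 for fht1, 0.0885 for a1 and 0.0990 for a2, with the same fold changes. limma voom called the same 2 members, against 3.97% of features, and gave adjusted p-values of 0.0979 for fht1, 0.124 for a1 and 0.170 for a2. DESeq2 called all 5, with 0.0375 for a2 as the highest adjusted p.

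**Figure D3:**
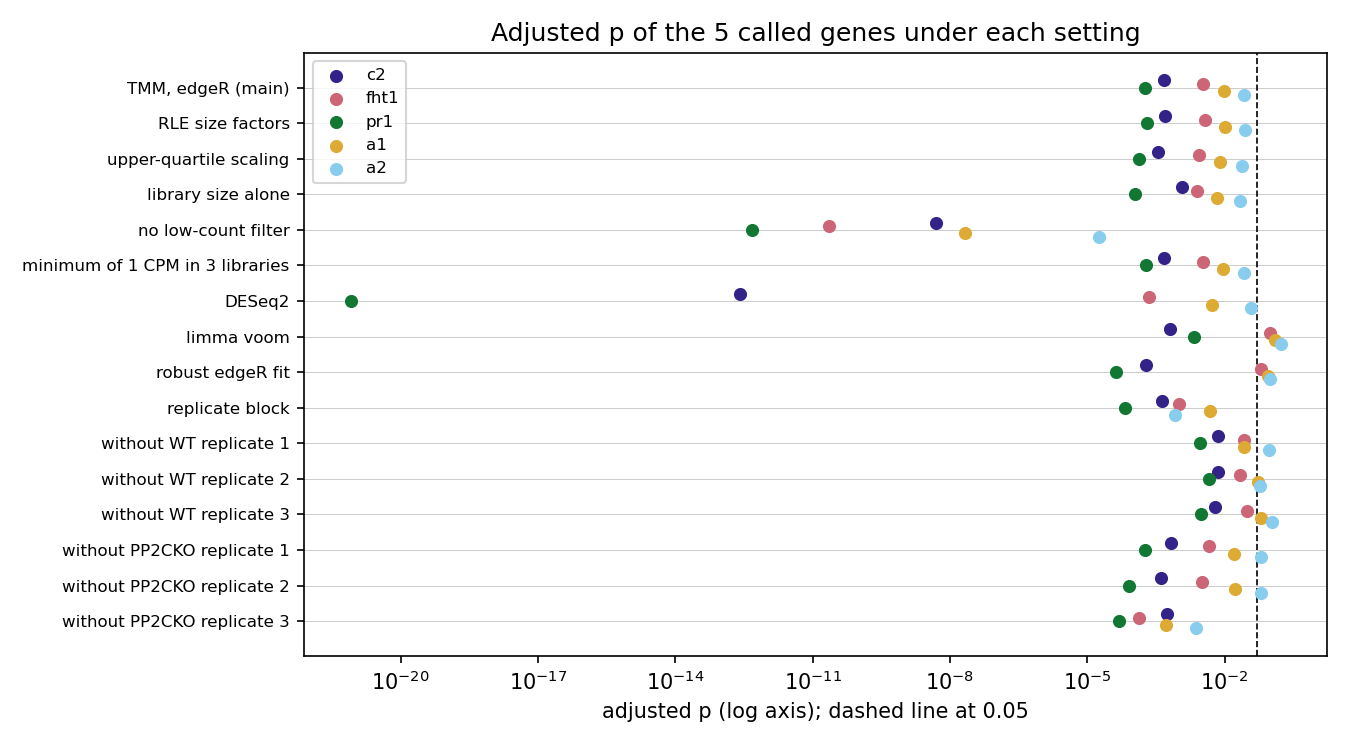
Adjusted p (log axis) of the 5 genes called, under the original fit and 15 alternatives, with the threshold of 0.05 dashed. c2 and pr1 lie left of the line throughout, fht1 crosses it under limma voom and the robust edgeR fit, and a1 and a2 cross it in 4 and 7 settings.

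The glucosyltransferase gene bz1, whose product attaches glucose to anthocyanidins, was near the limit of detection. It had 0, 6 and 1 counts in WT and 5, 79 and 20 in PP2CKO. PP2CKO replicate 2 held most of the 104 PP2CKO counts, and PP2CKO replicate 1 lay below WT replicate 2 in CPM (0.321 against 0.345). The pooled ratio was 15.2, with a 95% counting interval of 7.11 to 38.7. In the fit without the low-count filter the log2 fold change was 3.92 ± 0.90 (SE) with an edgeR adjusted p of 0.00197, in a setting where 5.75% of 29079 features were called higher. Also without the filter, limma voom (log2 3.61, adjusted p = 0.0998) and the robust edgeR fit (log2 3.92, adjusted p = 0.0513) did not call it. Without PP2CKO replicate 2 it was 2.24 with an edgeR adjusted p of 0.440. Without WT replicate 2, which held 6 of the 7 WT counts, it was 5.90 with the call kept. Adjusted p-values of the edgeR fit without the filter are not on the footing of the filtered fit. They were far lower for c2, fht1, pr1, a1 and a2, at 2.2e-11 against 0.00332 for fht1, and higher for chi1, bz2 and r1.

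The last enzyme gene of the series, bz2, was not raised in any PP2CKO library. It stood at 26.1, 15.8 and 23.3 CPM in WT and at 20.6, 16.7 and 20.2 CPM in PP2CKO. The PP2CKO libraries lay within the range of the WT libraries. Its log2 fold change was -0.18 ± 0.21 (SE), with a 95% interval of -0.62 to 0.26 (edgeR adjusted p = 0.644), so the fold interval from 0.649 to 1.20 holds no rise of the size seen in c2.

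The regulator gene r1 was low in both lines. It stood at 3.20, 2.53 and 5.12 CPM in WT and at 5.003, 4.86 and 2.34 CPM in PP2CKO. The lines overlapped fully, with the highest value in WT replicate 3 and the lowest in PP2CKO replicate 3. Its change was small beside its error, with a log2 fold change of 0.16 ± 0.39 (SE), with a 95% interval of -0.69 to 1.01 (edgeR adjusted p = 0.846), and it was -0.09 with library size alone. Related regulator genes and the other pathway genes on a list of 14 symbols, among them c1, pl1, p1 and b1, were not analysed here, since 0 of the 14 could be paired with an identifier. Reads of close relatives of r1 may also have been counted with it.

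**Figure D4:**
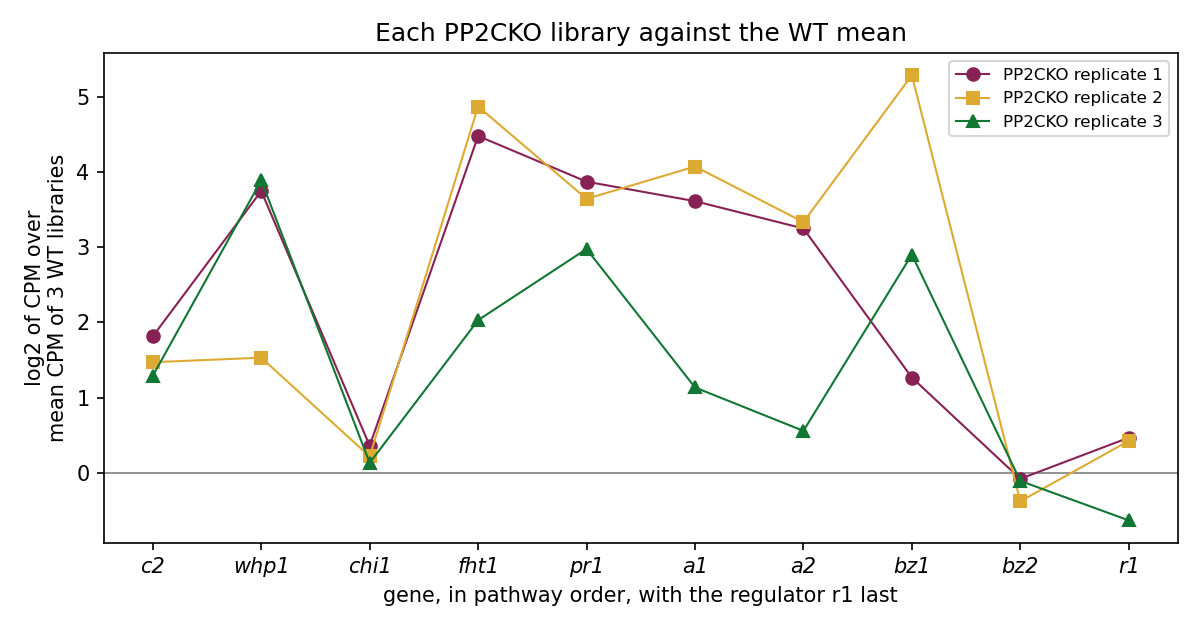
CPM of each PP2CKO library over the mean CPM of the 3 WT libraries, on a log2 scale, in pathway order; each line is 1 library. From fht1 to a2, PP2CKO replicates 1 and 2 lie between 3.25 and 4.87. PP2CKO replicate 3 lies at 2.03 in fht1, 2.97 in pr1, 1.14 in a1 and 0.56 in a2.

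The 3 PP2CKO libraries did not carry the same increase. PP2CKO replicate 3 had the lowest CPM of its line for 7 of the 10 members, namely c2, chi1, fht1, pr1, a1, a2 and r1. Over all tested features that library was the lowest of its line in 33.3%, and over all features called higher in 54.9%. The highest PP2CKO library exceeded the lowest by 7.15-fold for fht1, 7.65-fold for a1 and 6.84-fold for a2. The same ratio was 1.44 for c2, 1.86 for pr1, 1.17 for chi1 and 1.23 for bz2. PP2CKO replicate 3 was also the deepest library, and r1 was at its lowest there. Whether either has a part in the lower values of that library was not tested. Without PP2CKO replicate 3, the log2 fold change was 4.66 for fht1, 3.86 for a1, 3.75 for pr1 and 1.65 for c2.

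Within the knockout line, fht1 and a1 kept nearly the same proportion to each other although their levels differed several-fold between libraries. For every 100 fht1 counts there were 70.4, 73.8 and 69.0 a1 counts in PP2CKO replicates 1, 2 and 3. The 95% counting interval of the lowest of these, from 84 fht1 and 58 a1 counts, was 48.5 to 97.6. The corresponding a2 counts were less even, at 46.5, 37.6 and 39.3, with a 95% counting interval of 25.4 to 59.4 in PP2CKO replicate 3. How many other pairs of genes keep so even a proportion was not computed. In WT the proportions were uneven, with 617, 35.7 and 100 a1 counts and 350.0, 107 and 30.0 a2 counts per 100 fht1 counts. The WT values rest on 6, 28 and 20 fht1 counts, and their counting intervals are wide, from 258 to 1788 for a1 in WT replicate 1. In WT the 3 genes had no common order: the lowest library was replicate 1 for fht1, replicate 2 for a1 and replicate 3 for a2.

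**Figure D5:**
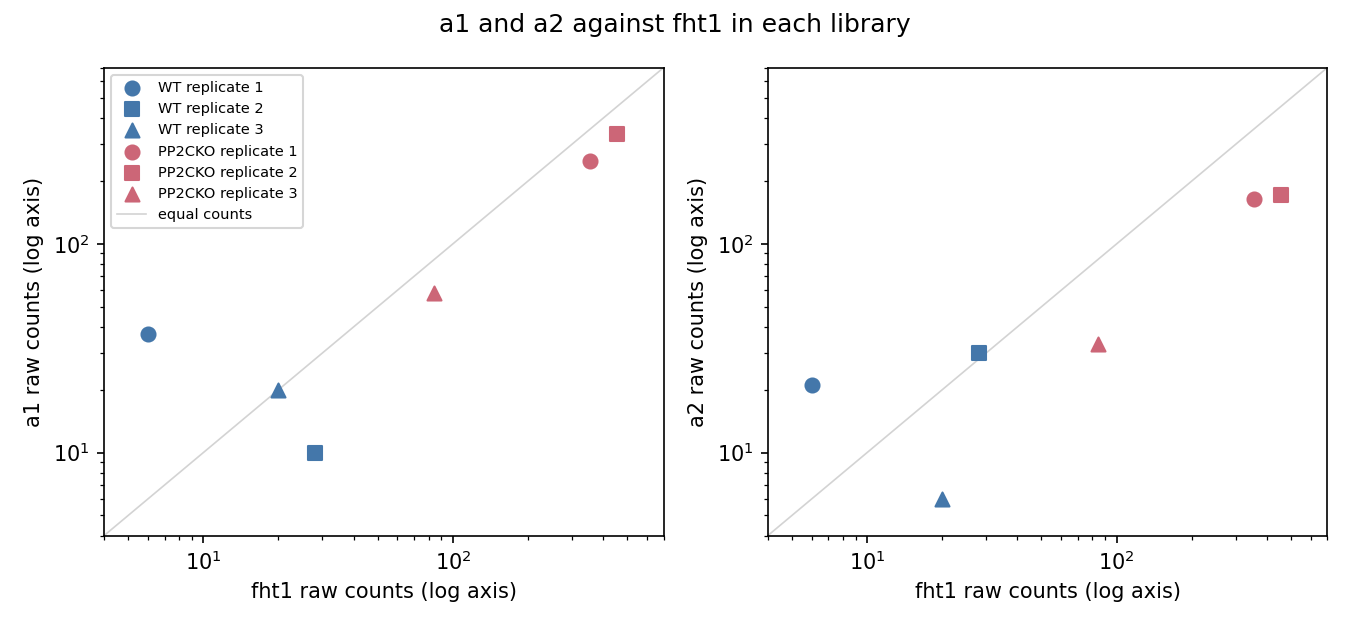
Raw counts of a1 (left) and a2 (right) against raw counts of fht1 in each of the 6 libraries, on log axes, with a grey line at equal counts. The 3 PP2CKO libraries run parallel to the line below it, from 84 to 455 fht1 counts, and the 3 WT libraries scatter at 6 to 28 fht1 counts.

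The likeness of profiles over the 6 libraries was measured as the root mean square difference of log2 CPM after each gene was centred on its own mean. For a1, pr1 was the nearest member at 0.81, the 16th nearest of 21205 other features, followed by a2 at 0.91, the 39th. For fht1, pr1 was again the nearest member at 0.92, the 16th, and a2 and a1 came 66th and 87th. For a2, the nearest member was a1 at 0.91, the 98th. These ranks reflect mostly the shared difference between lines, which the same libraries set for all genes. When each gene was centred within its line, the ranks of these pairs were lower, and r1 was the nearest member for a1 and for fht1. For a1, r1 came 407th, pr1 498th and a2 1318th. For fht1, r1 came 1210th, a2 1663rd and a1 10581st. The within-line ranks were not mutual, since for r1 the gene pr1 came 230th, a1 18919th and fht1 19616th. For a2, r1 came only 7457th within the line. Centred over the 6 libraries, r1 had come 3404th for a1 and 4899th for fht1. The gene chi1 had a flat profile, and its nearest features outside the pathway were Zm00001d029519 at 0.017 and Zm00001d012982 at 0.030, which carry no name here.

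All 3 PP2CKO libraries were above all 3 WT libraries in 5 of the 10 members, and in 14.8% of all tested features. These members were c2, chi1, fht1, pr1 and a1, all among the 8 tested ones. For chi1 this depended on TMM scaling. Relative to the plain library totals, WT replicate 2 (849 of 15928973 counts) was above PP2CKO replicate 1 (906 of 17971317 counts). Transcript lengths for these identifiers were not used, so differences in CPM or counts between genes, c2 and whp1 included, are not differences in level per length.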

How the data were processed

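The authors deposited raw counts per gene, 1 column per library, with no normalization. Per the labels' protocols, reads were cleaned of adaptors and low quality and mapped with STAR 2.4.0j against B73 v4. How reads were counted, on which annotation and with which strand setting is not given in the sources used here. Alleles of KN5585 that differ from those of B73 may lose reads in both lines.

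Counts were tested in R 4.3.3 with edgeR 4.0.16 (quasi-likelihood F test, genotype as the only term, TMM scaling, Benjamini-Hochberg adjustment over all tested features, called below 0.05). filterByExpr with a minimum count of 10 and a minimum total of 15 kept 21206 of 45953 features. SEs are the log2 fold change divided by the square root of F, and 95% intervals use the t quantile at the fit's degrees of freedom. CPM values use TMM-scaled totals; log2 CPM for profile likeness had a prior count of 2. Counting intervals are exact (Clopper-Pearson). They and floors of 3 counts cover counting error only, since reads carry no molecular identifiers. limma 3.58.1 (voom), DESeq2 1.42.0, other scalings and filters, a replicate block and leaving out each library were alternatives. The procedure was tested on simulated data. It called 63% of 100 features given a 2-fold change and 81% of 100 given a 4-fold change. Of 21006 features given no change, it called 0.0476%. The simulation left out the TMM factors of the real libraries.

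The members, the lists and the rule for naming genes were chosen with earlier results of these data known. The rule named all 10 members, other pathway genes that a symbol could identify, and the 2 features nearest in profile to chi1, the tested member with the highest mean CPM over all 6 libraries. The gene table at hand, for assembly Zm-B73-REFERENCE-NAM-5.0, matched 0 of 43789 nuclear identifiers, so no coordinates or sequences are given and leaf and root markers were not checked.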

Additional observations from a re-analysis of the deposited data

How the results depend on the processing

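Over the alternatives, 5 members were called higher under RLE size factors, upper-quartile scaling, library size alone, a minimum of 1 CPM and DESeq2. limma voom called 2 and the robust edgeR fit 2, for which the cause was not tested. Without a low-count filter 6 were called, the sixth being bz1, and at an adjusted p below 0.01 the count was 4. Leaving out 1 library gave 3 to 5 members called higher, with fewer libraries by construction and a filter that then asks for 2 libraries. The count was 3 without WT replicate 2 or 3, with c2, fht1 and pr1 called. Over all features, calls higher fell from 1092 to 475, 570 and 339 without WT replicates 1, 2 and 3. Without PP2CKO replicate 1, bz1 was called while a2 was not, but bz1 passed the filter there only through the PP2CKO libraries, where it is high. No setting called a member lower. c2 and pr1 kept their direction and their call in all 15 alternatives, with a highest adjusted p of 0.00723 and 0.00454. chi1, bz2 and r1 were not called in any of their 15. The difference in the c2 share of -0.987 percentage points moved by less than the SD between libraries in every setting, to -0.55 without PP2CKO replicate 3 and to -1.46 without PP2CKO replicate 2. A fit with the replicate number as a block called 5 members higher and 0 lower, with 1323 of all features higher and 537 lower. The numbers were not taken as pairs, by a bound of 0.1 on correlation. The deviations of libraries that share a number had correlations across genes of 0.0525, 0.0888 and 0.0847, under that bound. Every library nonetheless correlated best with its own number, and correlations between different numbers were all negative (-0.0705 to -0.00985). Because deviations were centred within each line, a positive value for 1 pair forces negative values among the others, so the negative signs are partly built in. Whether the numbers mark a shared batch was not tested. The fits of whp1 and bz1 without the filter were added after seeing the data. These genes had 5 and 7 counts over the WT libraries.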

Other observations

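Counts per 100 chi1 counts of the same library need no scaling between libraries. c2 stood at 50.7, 49.9 and 61.3 in WT and at 147, 128 and 119.8 in PP2CKO. pr1 stood at 3.31, 2.36 and 3.35 in WT and at 33.9, 31.9 and 21.3 in PP2CKO. fht1 stood at 0.826, 3.30 and 2.58 in WT and at 39.2, 56.7 and 8.42 in PP2CKO. On this measure c2, pr1 and fht1 had no overlap between the lines, nor had a1, by a narrow margin. The measure rests on the same counts as the CPM values, so it is not separate support for them. The share of all features without overlap was not computed for this measure. a1 reached 5.10 in WT replicate 1 and was at its lowest among PP2CKO libraries in replicate 3, with 5.81. a2 reached 3.53 in WT replicate 2, above the 3.31 of PP2CKO replicate 3. bz2 ranged from 32.3 to 58.5 in WT and from 31.8 to 40.7 in PP2CKO.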
